A study of Mus musculus with 16 samples.

Results

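The genes Ccl3, Ccl4, Ccl5, and Xcl1, which encode chemokines that activated CD8+ T cells secrete, were followed through the 9 CD8+ T cell matrices of a mouse kidney transplantation study. They were chosen by name, and all 4 of the 4 were present in every matrix, out of 32285 genes in the series and 16243 shared by all matrices. The study sorted viable CD45+ cells, which are leukocytes, from kidney grafts and recipient spleens of male mice, sequenced them by droplet single-cell RNA-seq, and deposited the cells its authors called CD8+ T cells as separate matrices. In the acceptance model, a DBA/2J kidney was placed in a WT C57BL/6J (B6) recipient whose own kidneys had been removed, and graft and recipient spleen were taken at 1, 3, and 24 weeks. In the rejection model, a B6 kidney was placed in a DBA/2J recipient and graft and spleen were taken at 1 week. The labels give strain C57BL/6J and genotype WT for every sample, whereas the study's methods make the recipient T cells of the rejection model DBA/2J. Rejection and recipient strain therefore cannot be told apart in any comparison of the 2 models. Naive spleen came from B6 mice without a transplant.

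CCL3 (MIP-1α), CCL4 (MIP-1β), and CCL5 (RANTES) are CC chemokines that attract T cells, monocytes, and macrophages. CCL3 and CCL5 bind CCR1, and CCL5 binds CCR3. XCL1 (lymphotactin) belongs to the small XC family and binds XCR1, whose best known carriers are cross-presenting dendritic cells. T cells and NK cells switch on Ccl3, Ccl4, and Xcl1 within hours of receptor stimulation, whereas Ccl5 is a late gene that effector and memory CD8+ T cells keep on at a high level. In kidney grafts these chemokines are known as recruiters of further leukocytes into the tissue.

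The CC members are neighbors. On GRCm38 (GENCODE vM21), Ccl5 spans chr11:83525778-83530518 on the minus strand, Ccl3 spans chr11:83647844-83649355 on the minus strand, and Ccl4 spans chr11:83662584-83664683 on the plus strand. Between Ccl5 and Ccl3 lie 117325 bases and 3 entries annotated as protein coding, among them Ccl9 and Ccl6, while 13228 bases without a protein-coding gene separate Ccl3 from Ccl4. Xcl1 spans chr1:164931644-164935527 on the minus strand. The principal transcript of each member has 3 exons. The 250 bases that precede the RefSeq start are shown for Ccl3 and Xcl1, the 2 of 4 members matched in the RefSeq promoter set (GRCm38.p6), because both are early genes of T cell receptor stimulation whose levels the graft comparisons turn on. They are printed on the gene's own strand, 5′ to 3′, at chr11:83649379-83649628 for Ccl3 and chr1:164935523-164935772 for Xcl1, with capitals on every match to the searched motifs.
Ccl3: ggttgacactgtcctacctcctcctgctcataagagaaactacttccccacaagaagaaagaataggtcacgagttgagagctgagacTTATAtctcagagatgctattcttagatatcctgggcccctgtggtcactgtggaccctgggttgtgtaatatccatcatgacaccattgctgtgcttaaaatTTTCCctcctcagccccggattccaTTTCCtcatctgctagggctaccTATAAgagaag
Xcl1: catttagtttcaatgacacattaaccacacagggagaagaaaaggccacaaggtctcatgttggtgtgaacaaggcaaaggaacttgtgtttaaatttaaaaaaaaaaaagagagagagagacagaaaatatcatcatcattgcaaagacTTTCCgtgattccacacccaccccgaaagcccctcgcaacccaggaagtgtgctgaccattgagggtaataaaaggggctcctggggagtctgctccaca
The motifs, read on both strands, were TATAA (the TATA box core), GGAAA (the core bound by NFAT factors, which read as TTTCC on the opposite strand), and TGANTCA (the AP-1 site). The Ccl3 window held TATAA at 162 and 11 bases before the start and GGAAA at 59 and 34 bases before it. The Xcl1 window held GGAAA once, at 100 bases before the start, and no TATAA. Neither window held TGANTCA. Of 32851 promoter windows of this length, 22.8% held TATAA, 55.6% held GGAAA, and 6.75% held TGANTCA, so these matches are common and describe letters only. GC content was 46.8% for Ccl3 and 44% for Xcl1, against a median of 52.4% over all windows.

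The 9 matrices held 72639 cells and 224208174 UMIs (unique molecular identifiers, 1 per captured mRNA) in 32 libraries, with 153266 to 25960721 UMIs per library. A library is a tag in the cell barcodes, and each group is 1 deposited sample with 2 to 5 tags. The labels do not say that tags are separate mice. The study's methods call each mouse its own sample and give 3, 5, and 3 biological replicates at 1, 3, and 24 weeks. These numbers match the tags of the accepted groups, and none is given for naive spleen. The p-values measure the spread between these libraries. The rejecting spleen is the thinnest group, with 726 cells, and the rejecting kidney has 2 libraries, numbered 2 and 3, with 2184 cells. Cells with a Cd8a or Cd8b1 UMI made up 83.5% to 97.0% of the accepted kidney libraries at 1 and 3 weeks, 76.6% and 78.1% of the rejecting kidney, 94.97% to 97.6% of naive spleen, and 41.9% to 51.8% of the accepted spleen at 1 and 3 weeks. In these accepted spleens, 10.0% to 23.0% of the cells had a Cd4 UMI and no CD8 UMI, so levels, shares of cells, and the co-detection of Xcl1 and Ccl5 were computed for CD8+Cd4- cells too. At 24 weeks some measures of these libraries went against the labels. Of 20 kidney parenchyma genes, 14 were higher in kidney than in spleen CD8 libraries at 1 week and 17 at 3 weeks, but at 24 weeks the kidney label had 2 of them higher and the spleen label 13. Their sum, most of it Ass1 and Epcam, stood at 54.8 to 58.4 CPM under the kidney label and at 46.0 to 53.4 CPM under the spleen label. At 1 week it was 49.3 to 60.1 CPM in kidney and 55.8 to 68.1 CPM in spleen, and at 3 weeks 65.2 to 76.1 CPM and 37.1 to 44.2 CPM. Pooled Ass1 was lower in kidney than spleen at 1 week (35.2 and 52.5 CPM) and 3 weeks (9.62 and 35.7 CPM), but higher under the kidney label (49.1 and 10.4 CPM). Epcam was higher in kidney at 1 week (16.5 and 8.07 CPM) and 3 weeks (50.2 and 4.06 CPM), but lower under the kidney label (7.04 and 33.6 CPM). The sum mixes genes of opposite direction and is not read as a measure of tissue. Cells with a CD8 UMI made up 46.2% to 49.2% of the libraries labelled kidney and 93.4% to 95.3% of those labelled spleen. The groups of that time point are therefore named by their label throughout. Pairs of libraries shared at most 21 cell barcodes, and at most 1.79% of the smaller library. Because the fits compare sums over all cells of a library, fewer producing cells and less RNA per cell cannot be told apart in them.

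Ccl3, Ccl4, and Xcl1 were higher in graft CD8+ T cells than in spleen cells at 1 and 3 weeks. Values are CPM, the UMIs of a gene per 1000000 UMIs of a library's cells. Ccl3 stood at 134, 136, and 94.0 CPM in the 3 accepted kidney libraries at 1 week and at 217, 120, 130, 139, and 99.0 CPM in the 5 at 3 weeks, and at 133 and 114 CPM in the rejecting kidney. In spleen it stood at 5.93, 7.85, and 5.72 CPM at 1 week, at 0 to 7.99 CPM at 3 weeks, at 0 to 6.29 CPM in rejection, and at 0.211 to 0.785 CPM without a transplant. All 10 graft libraries of the 1- and 3-week time points were above all 16 of these spleen libraries. Ccl4 stood at 525, 507, and 373 CPM at 1 week, at 1146, 740, 808, 771, and 635 CPM at 3 weeks, and at 281 and 141 CPM in the rejecting kidney. The spleen libraries of the same models ranged from 0 to 32.4 CPM and naive spleen from 3.84 to 6.54 CPM. The 3 kidney groups did not overlap for Ccl4: every 3-week library was above every 1-week library, and both rejecting libraries were below them all. Such separation of libraries is given throughout for the members only, without the share of all genes that show it, and so sets no member apart.

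Xcl1 stood at 617, 553, and 383 CPM in the accepted kidney at 1 week and at 363, 240, 341, 381, and 345 CPM at 3 weeks. The rejecting kidney held 207 and 129 CPM, the accepted spleen 43.5, 27.7, and 23.8 CPM at 1 week and 18.3 to 23.6 CPM at 3 weeks, naive spleen 4.73 to 9.10 CPM, and the rejecting spleen 6.29, 0, and 1.51 CPM. The kidney groups again did not overlap, but here the 1-week grafts were the highest. Ccl5 had another pattern, because spleen cells held it as well. It stood at 5097, 7108, and 1691 CPM in the accepted kidney at 1 week and at 13988, 13332, 12271, 12085, and 11767 CPM at 3 weeks, with 2640 and 275 CPM in the rejecting kidney. Accepted spleen held 1894, 2779, and 2416 CPM at 1 week and 1455 to 2201 CPM at 3 weeks, rejecting spleen 464, 1285, and 380 CPM, and naive spleen 541 to 968 CPM. The lowest 1-week kidney library lay below all 3 spleen libraries of that week, and the 5 libraries at 3 weeks lay close together and far above all of them.

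**Figure D1:**
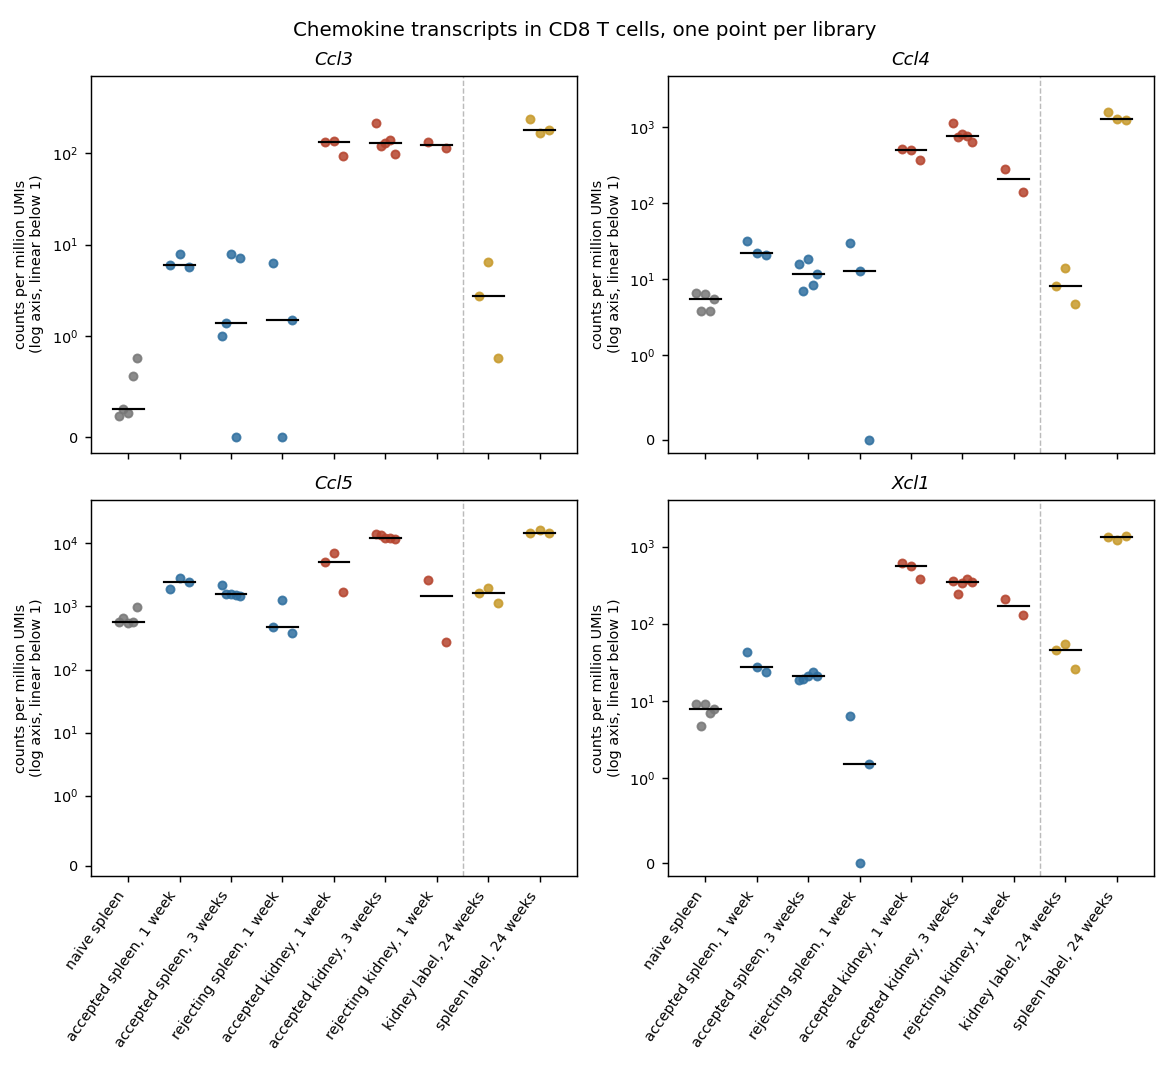
CPM of Ccl3, Ccl4, Ccl5, and Xcl1 in each CD8 library (points) with the group median (bar); the vertical axis is logarithmic above 1 CPM and linear below, and a dashed line sets off the libraries of the 24-week labels. Ccl3, Ccl4, and Xcl1 separate graft from spleen at 1 and 3 weeks, while Ccl5 of the 1-week kidney spreads from 1691 to 7108 CPM.

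In the order of mean level, the libraries labelled spleen at 24 weeks came first for all 4 members. Their means were 195 ± 36.4 CPM for Ccl3, 1376 ± 187 CPM for Ccl4, 15306 ± 1016 CPM for Ccl5, and 1311 ± 68.1 CPM for Xcl1 (SD, n = 3). For Ccl3 the accepted kidney at 3 weeks (141 ± 44.8 CPM, n = 5), the rejecting kidney (123 ± 13.4 CPM, n = 2), and the accepted kidney at 1 week (121 ± 23.6 CPM, n = 3) followed, and each overlapped with its neighbor in the order. The gap to the next group, accepted spleen at 1 week (6.497 ± 1.18 CPM), was free of overlap. For Ccl4 the first 4 groups were separate from each other, in the order spleen label at 24 weeks, accepted kidney at 3 weeks, accepted kidney at 1 week, and rejecting kidney. For Xcl1 the accepted kidney at 1 week preceded that at 3 weeks, again without overlap. For Ccl5, the accepted kidney at 1 week (4632 ± 2738 CPM) overlapped with accepted spleen at 1 week (2363 ± 445 CPM), and the groups from there down to naive spleen (657 ± 178 CPM) each overlapped with the next.

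At 1 week, graft CD8+ T cells held more of each member than the recipient's spleen cells. The edgeR quasi-likelihood test with Benjamini-Hochberg adjustment gave a log2 fold change of 4.23 ± 0.18 (SE) for Ccl3 (18.8-fold, adjusted p = 5.48e-08), 4.21 ± 0.19 for Ccl4 (18.5-fold, adjusted p = 6.95e-08), and 4.03 ± 0.24 for Xcl1 (16.4-fold, adjusted p = 4.05e-07). For Ccl5 the difference was 0.97 ± 0.37 (1.96-fold, adjusted p = 0.0489), which missed the threshold of 0.05 with TMM factors (adjusted p = 0.073), with DESeq2 (adjusted p = 0.126), and in CD8+Cd4- cells (0.88, adjusted p = 0.076). Thus 4 of 4 members were higher in the graft, where 27.3% of all 11707 genes tested were called higher and 51.4% were called in either direction. Without kidney library 3, which had the lowest Ccl5 and the most cells with a proliferation gene UMI (67.2% against 41.4% and 42.7%), the Ccl5 difference was 1.37, and leaving out any of the other 5 libraries lost its call (0.52 without kidney library 2, 0.83 without spleen library 1). In cells without a proliferation gene UMI it was 1.63. B cell markers stood at 8.64 to 10.2 CPM in sum in the graft and at 545 to 1068 CPM in spleen, and NK cell markers at 25.9 to 37.3 CPM and 58.9 to 97.2 CPM, and the part of these cells in the differences was not tested. In CD8+Cd4- cells the differences of Ccl3, Ccl4, and Xcl1 were 3.97, 3.98, and 4.38.

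At 3 weeks graft cells again held more of all 4 members. The log2 fold changes of graft over spleen were 5.33 ± 0.35 for Ccl3 (40.2-fold, adjusted p = 1.59e-10), 6.05 ± 0.20 for Ccl4 (66.2-fold, adjusted p = 7.12e-15), 2.93 ± 0.10 for Ccl5 (7.65-fold, adjusted p = 6.16e-15), and 4.03 ± 0.12 for Xcl1 (16.3-fold, adjusted p = 1.4e-15), by edgeR. In this comparison 47.3% of 10944 genes were called higher, 20.2% lower, and 67.5% in either direction. Of all calls, 70.0% were higher with plain library totals and 51.4% with TMM factors, and the median gene stood at 0.22. B cell markers stood at 12.9 to 30.2 CPM in the graft and 131 to 320 CPM in spleen. In CD8+Cd4- cells the 4 differences were 6.23, 5.97, 2.83, and 4.59.

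Within the graft, the members did not move together between 1 and 3 weeks. Ccl4 rose 1.75-fold (log2 fold change 0.81 ± 0.16, adjusted p = 0.00036) and Ccl5 rose 2.74-fold (1.45 ± 0.30, adjusted p = 0.000461), whereas Xcl1 fell 1.55-fold (-0.63 ± 0.15, adjusted p = 0.00137), by edgeR. Ccl3 did not pass the test (0.22 ± 0.20, adjusted p = 0.314). Background was high here: 53.5% of 11693 genes were called higher, 21.5% were called lower, and 75% in either direction, so a call as such sets no member apart. The median gene stood at 0.41, and 71.3% of calls were higher with plain totals against 49.7% with TMM factors. Relative to that shift, Ccl3 lay below the median gene, and its sign turned with TMM factors (-0.16) and with DESeq2 (-0.17). The sizes of the other changes also depended on the setting. Over 14 alternatives, left-out libraries among them, Ccl4 ranged from 0.42 to 0.90, Ccl5 from 0.74 to 1.90, and Xcl1 from -1.02 to -0.36. Each kept its call in all of them. Proliferation genes moved with this comparison: cells with a UMI of Mki67, Top2a, Pclaf, Stmn1, or Birc5 made up 41.4% to 67.2% of the 1-week libraries and 14.1% to 18.6% of the 3-week libraries. The sum of myeloid markers also moved, from 341 to 431 CPM at 1 week to 138 to 242 CPM at 3 weeks. Its largest part, Ly6c2, went from 272 to 60.4 CPM in the pooled groups and stood at 352 CPM in naive spleen. Lyz2 went from 50.1 to 59.9 CPM, C1qa from 12.3 to 19.0 CPM, C1qb from 17.2 to 16.7 CPM, and Cd68 from 7.15 to 4.90 CPM. Cells with a CD8 UMI went from 83.5% to 90.1% to 96.3% to 97.0% of a library, and the part of these changes in the result was not tested. In cells without a proliferation gene UMI the changes were 0.39 for Ccl3 (adjusted p = 0.049), 0.73 for Ccl4, 0.74 for Ccl5, and -0.36 for Xcl1.

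In the spleen over the same interval 3 of the 4 members fell. Ccl4 fell 2.04-fold (log2 fold change -1.03 ± 0.22, adjusted p = 0.00103), Ccl5 fell 1.42-fold (-0.51 ± 0.13, adjusted p = 0.00292), and Xcl1 fell 1.54-fold (-0.63 ± 0.17, adjusted p = 0.00417). The Ccl5 call was lost in 1 edgeR fit over all 9 groups (adjusted p = 0.268). Ccl3 was at -0.88 ± 0.51 (adjusted p = 0.154), with 0 UMIs in 1 of the 5 libraries at 3 weeks, and at -1.45 without library 3 of that group (edgeR, adjusted p = 0.036). Of 10416 genes, 21.1% were called lower, 35.1% higher, and 56.2% in either direction, and 62.5% of calls were higher with plain totals against 48.5% with TMM factors. In CD8+Cd4- cells the 4 changes were -2.04 for Ccl3 (edgeR adjusted p = 0.00083), -1.25 for Ccl4, -0.56 for Ccl5, and -0.94 for Xcl1. From 1 to 3 weeks B cell markers went from 545 to 1068 CPM in sum to 131 to 320 CPM, NK cell markers from 58.9 to 97.2 CPM to 43.2 to 63.3 CPM, and cells with a Cd4 and no CD8 UMI from 10.0% to 13.5% to 17.4% to 23.0%, and the part of these cells in the result was not tested. The interaction term, which tests whether the time change differs between graft and spleen, was 1.84 ± 0.31 for Ccl4 (adjusted p = 7.68e-05) and 1.96 ± 0.36 for Ccl5 (adjusted p = 0.000195). It was 1.10 ± 0.56 for Ccl3 (adjusted p = 0.123) and -0.01 ± 0.27 for Xcl1 (adjusted p = 0.991), with 29.2% of 12319 genes called higher, 40.1% in either direction, and a median gene at 0.24. In CD8+Cd4- cells the terms were 2.27 for Ccl3 (adjusted p = 0.0057), 1.99 for Ccl4, 1.95 for Ccl5, and 0.21 for Xcl1. Of the calls in all cells, 72.8% were higher with plain totals and 50.6% with TMM factors.

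Compared with naive spleen, the spleen of recipients at 1 week held more of each member. Ccl3 was 14.7-fold higher (log2 fold change 3.88 ± 0.33, edgeR adjusted p = 6.3e-08, approximate 95% interval of the fold 9.33 to 23.1), Ccl4 4.78-fold (2.26 ± 0.19, adjusted p = 4.88e-08), Ccl5 3.60-fold (1.85 ± 0.15, adjusted p = 4.53e-08), and Xcl1 4.16-fold (2.06 ± 0.20, adjusted p = 2.9e-07). The naive side of the Ccl3 fold is 1 to 3 UMIs per library, or 0.211 to 0.785 CPM, where naive B-like cells stood at 0.216 to 1.16 CPM, so that it is a fold over background. Of 10348 genes, 25% were called higher, 35.2% lower, and 60.2% in either direction (41.6% of calls higher with plain totals, 52.5% with DESeq2). NK cell markers in sum stood at 58.9 to 97.2 CPM in the recipient spleens and at 5.57 to 14.4 CPM in the naive ones, and B cell markers at 545 to 1068 CPM and 28.9 to 58.5 CPM. The NK receptor genes Ncr1 (2.88 to 5.94 against 0.211 to 1.31 CPM) and Klrb1c (14.3 to 20.3 against 0 to 1.44 CPM) did not overlap between recipient and naive libraries. The part of NK and B cells in the difference was not tested. In CD8+Cd4- cells the differences were 4.05, 2.55, 2.02, and 1.79 for Ccl3, Ccl4, Ccl5, and Xcl1.

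At 24 weeks the libraries labelled kidney were low in the members and those labelled spleen were high. Ccl3 stood at 2.71, 6.43, and 0.781 CPM under the kidney label and at 236, 169, and 179 CPM under the spleen label. Ccl4 stood at 8.30, 14.1, and 4.81 CPM against 1589, 1297, and 1240 CPM, Ccl5 at 1637, 1954, and 1140 CPM against 14611, 16473, and 14836 CPM, and Xcl1 at 45.8, 54.0, and 25.6 CPM against 1340, 1233, and 1360 CPM. No library of either label overlapped with the other for any member, and the share of all genes without such overlap is not given here. B cell markers stood at 98.1 to 252 CPM in sum under the kidney label and at 16.7 to 55.3 CPM under the spleen label, and cells with a Cd4 and no CD8 UMI made up 18.7% to 22.7% and 0.237% to 0.644%. The log2 fold changes of kidney label over spleen label were -5.94 ± 0.30, -7.27 ± 0.23, -3.28 ± 0.14, and -4.98 ± 0.19 in the same order of genes (edgeR, highest adjusted p = 9.46e-11). They were -5.91, -6.99, -3.31, and -5.33 among CD8+Cd4- cells, and the part of the B cell markers was not tested. All 4 members were lower under the kidney label, where 36.7% of 10381 genes were called lower and 53.1% in either direction (31.0% of calls higher with plain totals, 48.4% with TMM factors).

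Taken by label, the graft change from 3 to 24 weeks was -5.47 ± 0.38 for Ccl3, -6.53 ± 0.28 for Ccl4, -3.01 ± 0.14 for Ccl5, and -3.01 ± 0.20 for Xcl1 on the log2 scale (edgeR, highest adjusted p = 5.51e-09), with 56.9% of 11617 genes called lower and 73.5% in either direction (22.6% of calls higher with plain totals, 48.4% with TMM factors). The spleen change by label was 5.79 ± 0.30, 6.79 ± 0.17, 3.21 ± 0.10, and 6.00 ± 0.09 (highest adjusted p = 8.87e-13), with 29.8% of 10415 genes called higher and 60.6% in either direction. Without library 2 of the kidney label, Ccl3 was at -6.45 in that graft change and at -6.91 against the spleen label, and in CD8+Cd4- cells its spleen change was 6.68. Both directions rest on labels that the count of higher kidney genes, the levels of Ass1 and Epcam, and the shares of cells with a CD8 UMI go against. Outside the fit over all 9 groups, the edgeR fits on 1 and 3 weeks use none of these libraries. The adjusted p of the share tests is taken over 16 tests that include those of the 24-week labels.

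The share of cells with a member UMI was measured after each cell was thinned to 1000 UMIs, which left out 313 shallower cells of the accepted spleen at 1 week, 53 of it at 3 weeks, 97 of the spleen label at 24 weeks, and 1 naive cell. Ccl4 was found in 20.4%, 21.6%, and 17.6% of graft cells at 1 week and in 43.3%, 34.3%, 35.8%, 35.4%, and 30.1% at 3 weeks. Ccl5 was found in 62.5%, 68.6%, and 45.5% of cells at 1 week and in 95% to 96.6% at 3 weeks. Neither gene's groups overlapped, and the increases were 15.9 points for Ccl4 and 36.9 points for Ccl5 (exact two-sided permutation test over libraries, p = 0.0357 for each, the smallest this design allows, adjusted p = 0.044 over 16 tests). The 16 tests include those of the 24-week labels, so this adjusted p rests in part on them. No adjustment over the 1- and 3-week tests alone was made. Ccl3 stood at 6.72% ± 0.777 (SD, n = 3) and 9.91% ± 2.39 (n = 5), a difference of 3.19 points that did not pass (exact permutation p = 0.0714, adjusted p = 0.0762).

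For Xcl1 the share did not follow the level. It was found in 19.9%, 17.8%, and 19.8% of cells at 1 week and in 18.7%, 14.9%, 19.3%, 22.1%, and 19.7% at 3 weeks. The ranges overlapped (difference -0.27 points, exact permutation p = 0.929), although the CPM fell. Among cells without a UMI of the proliferation genes the difference was 2.97 points (exact permutation p = 0.143). Positive cells held 2.18 Xcl1 UMIs on average at 1 week and 1.65 at 3 weeks. For Ccl5 they held 10.2 and 13.4, for Ccl4 2.51 and 2.26, and for Ccl3 1.79 and 1.37 UMIs. Without thinning the shares were higher, at 34.3% and 52.6% for Ccl4, 70.7% and 97.8% for Ccl5, 14.3% and 19.1% for Ccl3, and 33.5% and 30.8% for Xcl1 (group means).

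In accepted spleen the thinned shares were 0.577% ± 0.0621 for Ccl3, 1.48% ± 0.226 for Ccl4, 29.2% ± 5.09 for Ccl5, and 2.51% ± 0.274 for Xcl1 at 1 week (n = 3). At 3 weeks they were 0.163% ± 0.0976, 0.765% ± 0.375, 20.01% ± 2.69, and 1.65% ± 0.374 (n = 5). The decreases of Ccl3, Ccl4, and Ccl5 had an exact permutation p of 0.0357 each (adjusted p = 0.044 over the same 16 tests) and that of Xcl1 a p of 0.0714. Without thinning the Xcl1 share did not fall, at 4.99% and 5.16%. In CD8+Cd4- cells the shares of the 4 genes in that order were 0.781%, 2.34%, 31.0%, and 1.46% at 1 week and 0.210%, 1.26%, 22.8%, and 1.04% at 3 weeks. There the decreases of 1.08 points for Ccl4 (exact p = 0.0714) and 8.22 points for Ccl5 (exact p = 0.107) did not pass, nor did that of Ccl5 without thinning (10.5 points, exact p = 0.0714). By the 24-week labels, the kidney shares differed from those at 3 weeks by -9.62, -35.2, -79.3, and -15.6 points and the spleen shares by 11.3, 39.7, 72.9, and 46.0 points, for Ccl3, Ccl4, Ccl5, and Xcl1 (exact p = 0.0357 each, adjusted p = 0.044). Droplet libraries carry free RNA, and the B-like cells of the matrices that hold all CD45+ cells gave its level. In naive spleen, at most 0.0713% of B-like cells had a Ccl3 UMI and at most 0.190% a Ccl4 UMI, against 0 to 0.134% and 0.105% to 0.491% of naive CD8+ T cells. The naive Ccl3 share is at that background and is not read as expression. Counts of all CD45+ cells of the accepted grafts and spleens were not analysed here, so the background of their shares was not measured.

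**Figure D2:**
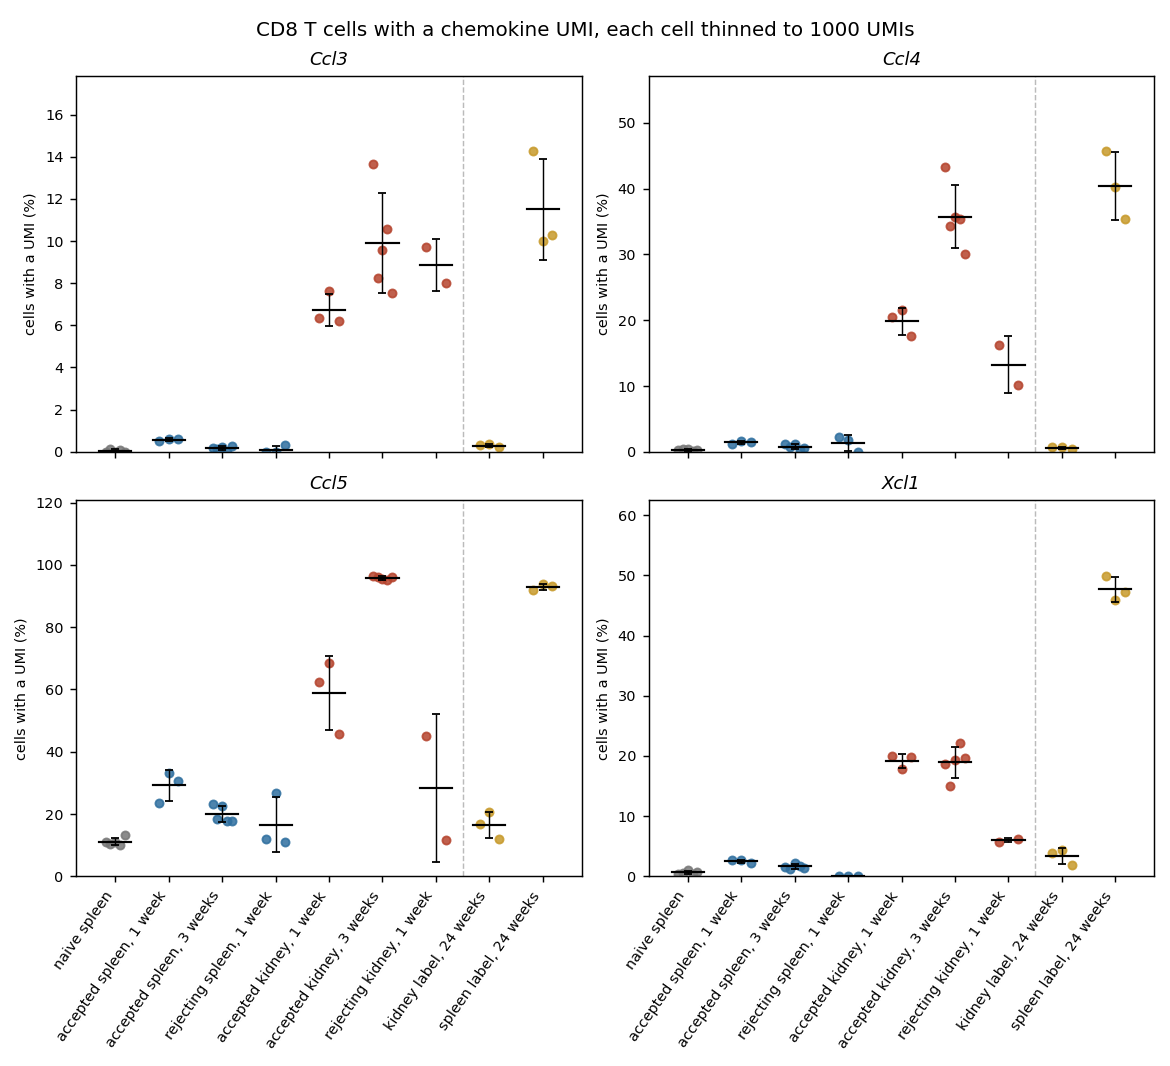
Share of cells with at least 1 UMI of each member at 1000 UMIs per cell, for each library (points) with the group mean and SD (bars), in percent. Ccl5 reaches 95% to 96.6% of graft cells at 3 weeks, and the Xcl1 shares of the 1- and 3-week grafts lie on top of each other.

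The rejecting graft was compared with the accepted graft at 1 week. Ccl3 stood at 133 and 114 CPM against 134, 136, and 94.0 CPM and did not pass (log2 fold change 0.02 ± 0.20, approximate 95% interval of the fold 0.769 to 1.34, adjusted p = 0.935 by edgeR). Ccl4 was 2.22-fold lower (-1.15 ± 0.30, adjusted p = 0.00942) and Xcl1 3.09-fold lower (-1.63 ± 0.28, adjusted p = 0.00111), with both rejecting libraries below all accepted ones. Ccl5 did not pass (-1.67 ± 0.86, adjusted p = 0.123), and its 2 rejecting libraries stood far apart, at 2640 and 275 CPM. The Ccl5 difference was -4.07 without library 2 and -0.81 without library 3, each with a lone rejecting library whose spread was taken from the accepted ones.

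The same comparison called 10.5% of 12533 genes lower, 48.8% higher, and 59.3% in either direction. The median gene stood at 0.70, and 82.3% of calls were higher with plain totals against 51.7% with TMM factors. Relative to that median all 4 members were low, and with TMM factors Ccl3 changed sign and passed (-0.67, edgeR adjusted p = 0.029), Ccl4 was at -1.84, and Xcl1 at -2.31. DESeq2 gave -1.83 for Ccl4 and -2.30 for Xcl1. Cells with a proliferation gene UMI made up 29.6% of rejecting library 2 and 74.8% of library 3, the one with the low Ccl5. Without such cells Ccl3 was higher in the rejecting graft (0.57, adjusted p = 0.0064), Ccl4 was at -0.79, Xcl1 at -1.23, and Ccl5 at -1.79 (adjusted p = 0.00044). The direction of Ccl3 thus differed between settings, and those of Ccl4 and Xcl1 did not.

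The shares of cells with Ccl4, Ccl5, and Xcl1 were lower in both rejecting libraries than in any accepted one, and that of Ccl3 was higher. For Ccl5 the gap was narrow in 1 library (45.1% against 45.5%). Ccl3 was found in 9.73% and 7.99% of rejecting graft cells and Ccl4 in 16.3% and 10.2%, while Ccl5 was found in 45.1% and 11.6% and Xcl1 in 5.76% and 6.204%. The accepted graft at 1 week lay at 6.19% to 7.61%, 17.6% to 21.6%, 45.5% to 68.6%, and 17.8% to 19.9%. No test was made of these shares, since 2 libraries against 3 allow no p under 0.05 in a permutation test. Cells with Xcl1 held 2.57 of its UMIs on average in the rejecting graft and 2.18 in the accepted one.

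Within the rejection model, graft over spleen was 5.03 ± 0.47 for Ccl3 (adjusted p = 1.41e-05), 3.75 ± 0.63 for Ccl4 (adjusted p = 0.00107), 5.48 ± 0.50 for Xcl1 (adjusted p = 1.37e-05), and 1.09 ± 0.66 for Ccl5 (adjusted p = 0.291) on the log2 scale by edgeR. NK cell markers stood at 34.1 to 37.6 CPM in sum in this graft and at 0 to 11.3 CPM in its spleen, and B cell markers at 6.49 to 11.4 CPM and 111 to 515 CPM. Their part in the difference was not tested. The Ccl4 call was lost with DESeq2 (3.60, adjusted p = 0.237). The Ccl5 value turned with the graft library, to -1.31 without library 2 and to 1.95 without library 3. The spleen side rests on 6 Ccl3 UMIs, 26 Ccl4 UMIs, and 6 Xcl1 UMIs in all, and after thinning to 1000 UMIs 0 of 726 spleen cells had an Xcl1 UMI, which allows a share of up to 0.413% at that depth, while without thinning 1.42% of the cells of library 1 and 0.315% of those of library 3 had one. Without spleen library 1, which held 5 of these Ccl3, 24 of the Ccl4, and 5 of the Xcl1 UMIs, the differences were 6.57, 6.29, and 7.01, and that of Ccl4 was 3.02 without spleen library 3 and 3.16 without graft library 2. Of 8205 genes, 10.8% were called higher, 5.34% lower, and 16.1% in either direction (66.9% of calls higher with plain totals, 49.2% with TMM factors). The interaction term that asks whether graft over spleen differs between rejection and acceptance called none of the members, at 0.82 ± 0.62 for Ccl3, -0.48 ± 0.71 for Ccl4, 0.15 ± 0.93 for Ccl5, and 1.46 ± 0.76 for Xcl1 (adjusted p from 0.364 to 0.972). It sets the rejecting spleen, where 100% of the cells had a CD8 UMI, against the accepted spleen, where 41.9% to 49.2% had one. It called 1.42% of 13135 genes, 1.08% higher and 0.343% lower (75.9% of calls higher with plain totals, 58.4% with TMM factors, 43.2% with DESeq2). None of the 4 passed at an unadjusted p under 0.05 either, and DESeq2 called none of them. With 1 library left out the terms ranged from 0.33 to 2.41 for Ccl3 and from -1.23 to 2.16 for Ccl4. For Ccl5 they ranged from -2.22 to 1.04 and for Xcl1 from 0.97 to 3.05.

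Single cells differed in how many members they held. In the accepted graft at 1 week, a median of 22.9% of a library's cells held no member UMI at 1000 UMIs, 39.0% held Ccl5 alone, and 37.9% held at least 1 of Ccl3, Ccl4, and Xcl1. At 3 weeks these shares were 2.14%, 47.0%, and 51.3%, and in the rejecting graft 57.2%, 19.1%, and 23.6%. The rejecting values are midpoints of 2 libraries, at 43.0% and 71.5% without a member, 30.8% and 7.47% with Ccl5 alone, and 26.2% and 21.03% with at least 1 of the other 3. Cells with Ccl3, Ccl4, and Xcl1 together were rare, at 0.894%, 1.18%, and 0.523%. Of cells with at least 1 of these 3, 61.8% also held Ccl5 at 1 week, 95.9% at 3 weeks, and 37.0% in rejection, where the 2 libraries stood at 19.5% and 54.5%. In the libraries labelled spleen at 24 weeks, 1.27% of cells held none and 70.1% held at least 1 of the 3.

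Ccl3 and Ccl4, the neighbors on chromosome 11, were found in the same cells. At 1 week Ccl4 was present in 53.9% of Ccl3+ graft cells and in 18.1% of Ccl3- cells (library medians), a ratio of 2.85 to 3.37 over the 3 libraries. At 3 weeks it was present in 56.4% and 32.9% (ratio 1.42 to 1.76 over 5 libraries), and in the rejecting graft in 33.8% and 11.2% (2.91 to 3.18 over 2 libraries). The GENCODE models of the pair are separate, but the RefSeq entry of Ccl4, which includes a predicted transcript, starts at base 83648624 and overlaps that of Ccl3 by 755 bases (GRCm38.p6), on the opposite strand. Whether the counting used strand is not given in the sources used here, and the part of shared reads was not tested. Cells with Ccl5 had Xcl1 less often than cells without it in every library of the accepted graft. Xcl1 was present in 14.3% of Ccl5+ cells and 27.5% of Ccl5- cells at 1 week (ratio 0.48 to 0.64), and in 18.4% and 33.6% at 3 weeks (0.48 to 0.70). It was present in 45.3% and 75.0% in the libraries labelled spleen at 24 weeks (0.60 to 0.65). In the rejecting graft the libraries disagreed, with ratios of 0.55 and 1.199. Spleen libraries hold another mix of cells, and the difference from the graft was not tested. In accepted spleen, Xcl1 was present in 6.70% of Ccl5+ and 0.599% of Ccl5- cells at 1 week (ratio 9.69 to 33.0) and in 6.57% and 0.286% at 3 weeks (15.3 to 49.9). These shares among CD8+Cd4- cells, a choice made after seeing the data, were 3.66% and 0.696% at 1 week (ratio 3.60 to 20.7) and 4.13% and 0% at 3 weeks, with 3 to 7 cells per library holding both genes at 3 weeks. The same choice gave ratios of 0.43 to 0.62 in the graft at 1 week, 0.47 to 0.66 at 3 weeks, and 0.45 and 0.98 in the rejecting graft. The ratios in all cells were 4.08 to 26.4 in naive spleen, where 2 to 3 CD8+Cd4- cells per library held both genes, and 20.03 to 30.4 in the libraries labelled kidney at 24 weeks (9.62 to 31.0 in CD8+Cd4- cells). For Xcl1 in cells with and without Ccl4 the ratios were 1.117 to 1.28 in the graft at 1 week and 0.97 to 1.09 at 3 weeks, and the 2 libraries of the rejecting graft disagreed, at 0.82 and 1.62.

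**Figure D3:**
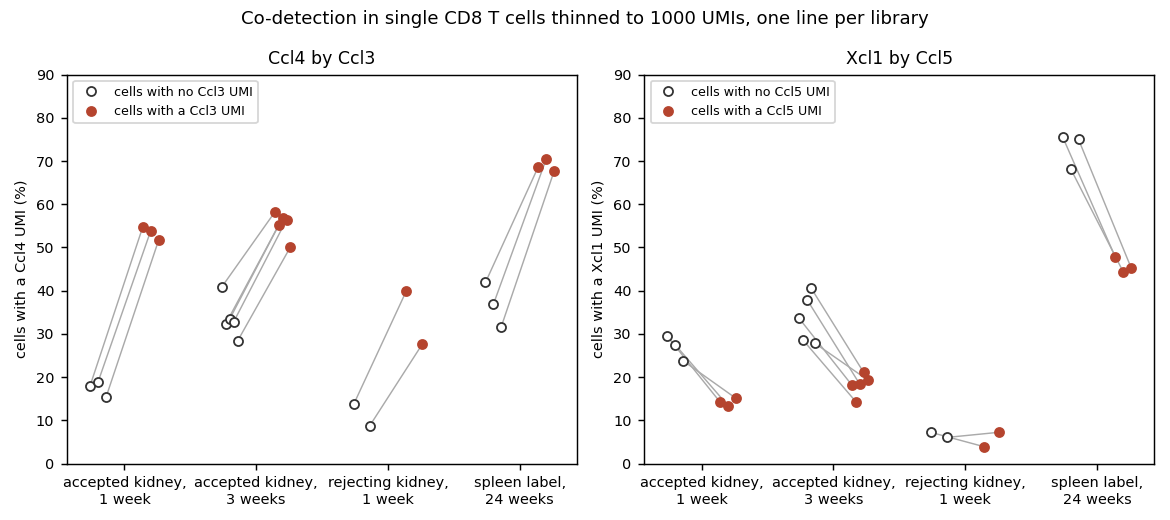
Share of cells with Ccl4 among cells with and without Ccl3, and share with Xcl1 among cells with and without Ccl5, in percent at 1000 UMIs per cell, with a line for each library of the 3 graft groups of 1 and 3 weeks and of the spleen label at 24 weeks. The Ccl4 lines rise with Ccl3 in every library, and the Xcl1 lines fall with Ccl5 in all libraries but 1 of the rejecting kidney.

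The cells around each member differed in the other genes they held. Ratios compare the CPM in cells with and without a member UMI, as the median over libraries, and describe cells that share their source. Beside Ccl4 (8.39), Ccl3+ graft cells at 1 week were highest in Ifng (4.23), the effector cytokine interferon-γ, Ccl1 (4.14), Xcl1 (2.77), and Prf1 (2.53), the pore-forming protein of cytotoxic granules. At 3 weeks the ratios were smaller, at 2.85 for Ccl4, 1.70 for Rgs16, and 1.48 for Ifng, and in rejection they were 6.34 for Ccl4, 5.45 for Ifng, and 2.69 for Havcr2, which encodes the checkpoint receptor TIM-3. Ccl4+ cells had Ccl3 first (8.63 at 1 week, 3.00 at 3 weeks, 5.79 in rejection) and Ifng at 2.97 at 1 week and 4.75 in rejection. At 3 weeks Nr4a3 (1.62) and Nr4a2 (1.39), nuclear receptors induced by T cell receptor signaling, were among their companions.

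Ccl5+ and Xcl1+ cells had other companions. At 1 week Ccl5+ cells were highest in Ccr2 (4.14), Gzma (3.91), Gzmk (3.65), and Ifitm1 (3.60), that is in the chemokine receptor gene Ccr2 and in 2 granzyme genes among others. At 3 weeks Gzma led, at 20.8 with a range of 5.04 to 29.9, followed by Adgrg1 (2.82), Gzmb (2.39), and Itgae (2.10), the integrin chain of tissue-resident T cells. These 3-week ratios rest on few cells without Ccl5, since 21265 of 22206 cells had a UMI of it. In rejection 2 hemoglobin genes led on the strength of 1 library (Hba-a1, ratio 0.58 and 72.4), ahead of Ifng (3.35). Xcl1+ cells at 1 week were highest in Ccl1 (8.97, range 4.85 to 23.5), Nrgn (3.22), Fcer1g (3.09), Tnfrsf9 (2.71), which encodes 4-1BB, Crtam (2.28), and Cd160 (2.11). At 3 weeks they were highest in Fcer1g (2.20), Irf8 (1.78), Tyrobp (1.72), and Cd7 (1.70). Fcer1g and Tyrobp encode signaling adaptors that NK cells also use. In rejection Ccl1 (21.4), Crtam (5.75), and Ifng (4.998) led.

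Cell states were set by lists, a cell counting as a member of a state when it held UMIs of at least 2 genes of its list. Proliferating cells, a median of 16.3% of the 1-week graft, held 0.28 to 0.55 times the Ccl5 CPM of the other cells, and 0.67 to 1.00 times the Ccl3, 0.83 to 1.01 times the Ccl4, and 0.84 to 1.04 times the Xcl1. In the rejecting graft, proliferating cells were lower in all 4 members, at 0.47 to 0.59 for Ccl3, 0.46 to 0.47 for Ccl4, 0.25 to 0.38 for Ccl5, and 0.50 to 0.60 for Xcl1. Cells with checkpoint receptor genes had Ccl3 in 12.1% against 7.08% of the other cells in the rejecting graft, in 8.16% against 6.26% in the accepted graft at 1 week, in 11.4% against 9.18% at 3 weeks, and in 17.3% against 10.1% under the spleen label at 24 weeks (library medians, not tested). Cells with residency genes held 0.26 and 0.48 times the Xcl1 CPM of the others in the rejecting graft. In the accepted graft at 3 weeks that ratio was 0.86 to 1.08.

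The transcripts were spread unevenly over cells. At 1 week the 5% of graft cells with the most Ccl3 held a median of 88.0% of its UMIs, and the corresponding shares were 63.2% for Ccl4, 60.3% for Xcl1, and 30.1% for Ccl5. At 3 weeks all 4 were lower, at 65.3%, 41.8%, 49.2%, and 18.5%. In the rejecting graft Xcl1 was the most concentrated, at 93.6%. A gene found in few cells is concentrated by this measure whatever its level per cell.

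Receptor genes of the same pathway were mostly sparse in CD8+ T cells. For graft over spleen at 1 week Ccr1 (log2 fold change -1.72 ± 0.36) and Sdc4 (-4.51 ± 0.33), a heparan sulfate proteoglycan gene, were lower, and Ccr3 (0.04 ± 0.38) and Ccr4 (-0.49 ± 0.38) did not pass, where the median of all genes was 0.003. Too few UMIs of Xcr1 and Ackr2 were present for a test. At 3 weeks Sdc4 was lower (-2.36 ± 0.38). Between 1 and 3 weeks in the graft Xcr1 rose (1.40 ± 0.38), Ccr3 fell (-2.88 ± 0.52), and Sdc4, at 0.33 ± 0.34, did not pass. In the rejecting against the accepted graft Ccr1 (3.11 ± 0.61) and Xcr1 (2.04 ± 0.70, 1.36 and not called with TMM factors) were higher, while Ccr3 (0.35 ± 0.60), Ccr4 (0.13 ± 0.68), and Sdc4 (1.23 ± 0.71) did not pass. Rejecting libraries 2 and 3 held only 16 and 6 Ccr1 UMIs and 2 and 7 Xcr1 UMIs. At least 2 myeloid markers were found in 7.22% and 16.3% of their cells. Both receptor genes had other carriers in that tissue, given below, and the part of such cells in these differences was not tested.

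Most listed genes of T cell activation were higher in graft than spleen, and fewer were in the other comparisons. Over all genes, 27.3% were called higher and 24.1% lower for graft over spleen at 1 week, and 47.3% and 20.2% at 3 weeks. From 1 to 3 weeks in the graft these shares were 53.5% and 21.5%, and in the rejecting against the accepted graft 48.8% and 10.5%. In both of these the list had a smaller share called higher than all genes did. Of the 16 listed, 10 were higher and 1 lower of 15 tested for graft over spleen at 1 week, with a list median of 0.99, led by Nr4a2 (4.06 ± 0.22), Nr4a3 (3.38 ± 0.20), Nr4a1 (2.68 ± 0.23), and Ifng (2.50 ± 0.13), while Cd69 was lower (-0.87 ± 0.15). At 3 weeks 10 were higher and 1 lower of 14 (median 2.10), with Ifng at 3.87 ± 0.10 and Tnfrsf9 at 4.30 ± 0.24. Between 1 and 3 weeks in the graft they split, 6 higher and 4 lower of 15 (median 0.23 against 0.41 for all genes). Fasl (2.03 ± 0.15), Nr4a2 (1.32 ± 0.11), and Tnf (1.24 ± 0.11) rose, and Il2ra (-2.85 ± 0.21), Nr4a1 (-1.26 ± 0.09), Irf4 (-0.95 ± 0.15), and Crtam (-0.85 ± 0.13) fell. In the rejecting against the accepted graft 6 were higher and 2 lower of 15 (median 0.65 against 0.70 for all genes), among them Irf8 (1.43 ± 0.17) and Tnf (1.39 ± 0.27), while Nr4a1 (-1.86 ± 0.20) and Cd69 (-0.76 ± 0.23) were lower and Ifng, at 0.12 ± 0.17, did not pass (adjusted p = 0.57). With TMM factors the list had 1 higher and 5 lower in that comparison, Ifng among the lower (-0.57) and Tnf not called (0.71), and 5 higher and 7 lower between 1 and 3 weeks.

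The other chemokine genes and the granule genes were described in the same way. Of 15 other chemokine genes, 5 of 6 tested were higher in graft than spleen at 1 week, among them Cxcl9 (6.84 ± 0.68), Cxcl16 (3.41 ± 0.45), and Cxcl10 (2.53 ± 0.28), which encode ligands of CXCR3 and CXCR6. Cxcl9 and Cxcl10 are known from myeloid cells, and from stromal cells, which the CD45+ sort removes. The summed monocyte and macrophage markers stood at 341 to 431 CPM in these graft libraries and 243 to 318 CPM in the spleen libraries. Most of the sum was Ly6c2 (272 and 260 CPM in the pooled groups). Lyz2 stood at 50.1 and 13.5 CPM, C1qa at 12.3 and 0.468 CPM, and C1qb at 17.2 and 0.497 CPM. The part of myeloid cells in the result was not tested. Between 1 and 3 weeks in the graft Ccl8 rose (2.59 ± 0.29) and Ccl1 (-2.22 ± 0.30) and Cxcl10 (-1.18 ± 0.14) fell, of 8 tested. All 6 granule genes were higher in graft than spleen at 1 and 3 weeks, with list medians of 1.55 and 3.04, and Gzmb (granzyme B) at 3.31 ± 0.21 and 7.25 ± 0.17. From 1 to 3 weeks in the graft 2 rose, Prf1 (1.49 ± 0.08) and Nkg7 (0.73 ± 0.11), and Srgn fell (-0.25 ± 0.09). In the rejecting graft Prf1 was 2.09 ± 0.18 and Gzmb 0.81 ± 0.22 higher, while Nkg7 and Srgn were lower, and with TMM factors 1 of the 6 was higher and 4 were lower, with Gzmb at 0.11 and not called. The 5 checkpoint genes (Pdcd1, Lag3, Havcr2, Tox, Tigit) were higher, 5 of 5, in all 4 of these comparisons with plain totals, but with TMM factors 3 of 5 were called from 1 to 3 weeks and 3 of 5 in rejection. The 4 residency genes were higher, 4 of 4, in graft than spleen at both times. Over all genes 27.3% (graft over spleen, 1 week), 47.3% (3 weeks), 53.5% (graft, 3 over 1 week), and 48.8% (rejecting over accepted) were called higher with plain totals.

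Across all 32 libraries the members followed each other, with Pearson's r of log2(CPM + 1) of 0.95 for Ccl3 and Ccl4, 0.92 for Ccl3 and Xcl1, 0.92 for Ccl4 and Xcl1, 0.84 for Ccl4 and Ccl5, 0.81 for Ccl5 and Xcl1, and 0.75 for Ccl3 and Ccl5. The points share groups, tissues, and library depth, and the values are a description. Of 5355 genes averaging 20 CPM or more, those most like Ccl3 were Ifng (0.97), Tceal9 (0.96), Ccl4 (0.95), Ctla2a (0.95), and Rgs1 (0.95). Those most like Ccl4 were Metrnl (0.97), Rgs1 (0.97), Ier5l, Snx18, and Fgl2. Those most like Ccl5 were Cebpb (0.94), Slc3a2, Coq10b, and Haus3, and those most like Xcl1 were Bcl2a1b (0.96), Metrnl (0.94), Tcrg-C2, Rgs1, and AW112010.

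CD8+ T cells were not the only cells with these transcripts in the rejecting graft. Its matrix of all CD45+ cells held 11948 cells, of which 2184 were in the CD8 matrix, and the rest were clustered without the members and named from marker genes. Cells of the CD8 matrix held 29.3% of all Ccl3 UMIs, 27.3% of Ccl4, 34.4% of Ccl5, and 45.5% of Xcl1. The 537 NK-like cells held 11.9%, 17.0%, 34.6%, and 32.1%. The 6775 monocyte and macrophage-like cells held 29.0%, 32.5%, 11.8%, and 2.36%. At 1000 UMIs, 3.30% and 2.71% of these cells had a Ccl3 UMI, 5.96% and 4.70% Ccl4, 9.54% and 8.50% Ccl5, and 0.213% and 0.202% Xcl1 (libraries 2 and 3). For the first 3 genes this was within or below the range of the B-like cells given below over both libraries. Within a library, Ccl3 in library 2 (1.22% of B-like cells) and Ccl5 in library 3 (5%) lay above the B-like share. The B-like cells are too few to tell expression from free RNA, which was not tested. A further 349 CD8-like cells outside the CD8 matrix held 11.02%, 7.65%, 5.20%, and 10.6%. A cluster of 622 cells with T cell and myeloid genes together, left unnamed, held 9.39%, 7.73%, 10.5%, and 7.74%. It had 3910 and 4707 UMIs per cell (median by library), above the 2271 and 2387 of the monocyte and macrophage-like cells, and Scrublet, a doublet caller, marked 3 of the 11948 cells (0.0251%) and so did not work here, which left doublets in place.

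Relative to all their UMIs, the NK-like cells had the highest median CPM of the named classes for all 4 members. In libraries 2 and 3 Ccl3 stood at 308 and 274 CPM in NK-like cells against 133 and 114 CPM in the CD8 matrix, Ccl4 at 972 and 467 against 281 and 141 CPM, Ccl5 at 9648 and 5466 against 2640 and 275 CPM, and Xcl1 at 841 and 482 against 207 and 129 CPM. For Ccl3 the 85 CD8-like cells outside the CD8 matrix in library 2 stood higher, at 430 CPM. The 2 libraries of a class give no test. At 1000 UMIs, 15.05% and 11.01% of NK-like cells had a Ccl3 UMI, 30.1% and 17.0% Ccl4, 84.6% and 67.4% Ccl5, and 32.0% and 20.6% Xcl1. B-like cells, 82 in library 2 and 20 in library 3, were used as the background in this tissue: 1.22% and 5% had a Ccl3 UMI, 6.10% and 10.0% Ccl4, 14.6% and 5% Ccl5, and none Xcl1. Their cluster was not clean, since 25% of its cells had a UMI of the T cell gene Cd3e and 36.5% of the myeloid gene Lyz2. Their median depth was 1391 to 1585 UMIs, against 1631 and 2849 in the CD8 matrix and 1412 to 1621 in NK-like cells. In library 3 the Ccl3, Ccl4, and Ccl5 shares of the CD8 matrix were 6.83%, 12.0%, and 11.3% in this draw, against 1, 2, and 1 of its 20 B-like cells, which are too few to tell these shares from the background. Values per cell of these 3 genes in that library carry this limit throughout. In naive spleen, 1432 NK-like cells held 63.3% of Ccl3, 65.9% of Ccl4, 52.7% of Ccl5, and 40.2% of Xcl1 UMIs, and the CD8 matrix held 0.468%, 4.07%, 12.3%, and 7.90%.

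**Figure D4:**
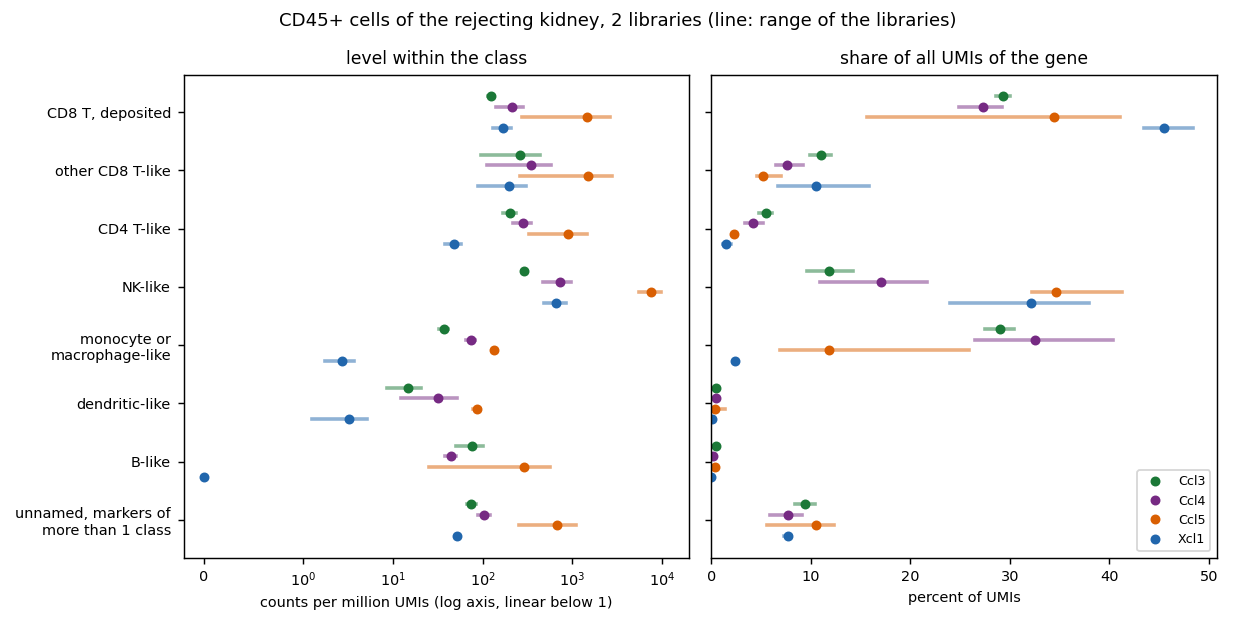
Left, CPM of each member by cell class in the CD45+ matrix of the rejecting kidney (dot, median of the 2 libraries, line, their range, logarithmic axis); right, each class's share of the gene's UMIs in percent (dot, both libraries pooled, line, range). NK-like cells have the highest median CPM of the named classes for all 4 members. The monocyte and macrophage-like cells, the most numerous class, hold 29.0% of Ccl3, 32.5% of Ccl4, and 2.36% of Xcl1 UMIs. The share of them with a Ccl3 or Ccl4 UMI lay within or below the range of the B-like cells over both libraries, which are too few to tell expression from background.

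The receptor genes had other carriers in the same matrix. Ccr1 stood at 261 and 204 CPM in monocyte and macrophage-like cells and at 6.73 and 1.95 CPM in the CD8 matrix (libraries 2 and 3). Xcr1 stood at 150 and 174 CPM in dendritic-like cells and at 2.27 CPM or less in the CD8 matrix. The cells with the most Xcl1 and those with the most Xcr1 were therefore different classes.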

How the data were processed

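Raw UMI counts per gene and cell, deposited by the authors as droplet matrices of CD8+ T cells (9) and of all CD45+ cells, were used without change. The submitters' processing notes name Cell Ranger and mm10, and the authors called the CD8+ T cells in Seurat; versions are not given in the sources used here. Counts were summed per library tag and tested pair by pair with edgeR 4.0.16 (glmQLFit and glmQLFTest, filterByExpr, plain library totals, R 4.3.3), p-values being adjusted by Benjamini-Hochberg over every gene tested (threshold 0.05). TMM factors, DESeq2 1.42.0, no filter, 1 fit over all 9 groups, CD8+Cd4- cells, and leaving out each library were alternatives. For shares, cells were thinned to 1000 UMIs and libraries compared by exact two-sided permutation tests (scipy 1.17.1). CD45+ cells were clustered with Leiden (scanpy 1.11.5, resolution 0.8, members left out) and named from marker lists; doublets were not removed. CPM divides by a library's UMIs over all genes. The fits were tested on simulated data. Intervals of folds are normal approximations from the SE of the edgeR fit, which takes in the spread between libraries. With so few libraries they are narrower than the quasi-likelihood test beside them would give. Floors cover counting error only. Members and lists were chosen with earlier results of these data known. Genes named are the members, the listed genes, the 5 most correlated genes per member (mean of at least 20 CPM), and the highest of up to 8 companions per member with at least 50 CPM in positive cells. Some of these genes, and results resting on them, are not reported here. Positions come from GENCODE vM21 on GRCm38, the mm10 assembly.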

Additional observations from a re-analysis of the deposited data

Results flagged for a closer look

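Dixon's criterion was applied to 24 sets of 5 libraries. Each set was a member's CPM or share of cells in the accepted kidney at 3 weeks, the accepted spleen at 3 weeks, or naive spleen. In 3 sets a library was set apart from the others. Chance marks about 1 in 20 independent sets, but these sets share libraries. Ccl5 stood at 2201 CPM in library 1 of the accepted spleen at 3 weeks, with the nearest other library at 1569 CPM. It stood at 968 CPM in library 5 of naive spleen, with the nearest at 645 CPM. Xcl1 stood at 240 CPM in library 2 of the accepted kidney at 3 weeks, with the nearest at 341 CPM.

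The change from 1 to 3 weeks differed between graft and spleen for 2 members. The difference between the tissues was 1.84 on the log2 scale for Ccl4 (adjusted p = 7.68e-05) and 1.96 for Ccl5 (adjusted p = 0.000195) by edgeR's interaction term, each gene being higher at 3 weeks in the graft and lower in the spleen.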

How the results depend on the processing

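Of 264 edgeR results of the members under other settings, 244 kept direction and side of the threshold, as did 371 of 396 with 1 library left out, 45 of 52 share differences, and 34 of 36 source shares; all 128 share differences with a library left out moved by less than 1 SD between libraries, although so few libraries could not pass the test, and 3 of them changed sign, all for Xcl1 in the graft from 1 to 3 weeks (-1.05 to 0.73 points around -0.27, above 0 without library 1 or 3 at 1 week or library 2 at 3 weeks). The cause of the exceptions below was not tested. In the graft from 1 to 3 weeks, Ccl3 was at -0.17 with DESeq2, -0.16 with TMM factors, and 0.39 without proliferating cells. For graft over spleen at 1 week, Ccl5 lost its call in 1 fit over all groups (0.97), with DESeq2 (0.97), with TMM factors (0.95), and in CD8+Cd4- cells (0.88). In spleen from 1 to 3 weeks, Ccl3 in CD8+Cd4- cells was at -2.04 and passed, and Ccl5 in 1 fit over all groups was at -0.51 and did not. For the difference between the tissues in that change, CD8+Cd4- cells gave 2.27 for Ccl3, which passed, and 0.21 for Xcl1. For rejecting against accepted graft, Ccl3 was at -0.66 with DESeq2, -0.67 with TMM factors, and 0.57 without proliferating cells, and Ccl5 passed in 1 fit over all groups (-1.67), without a filter (-1.67), and without proliferating cells (-1.79). For rejecting graft over spleen, Ccl4 lost its call with DESeq2 (3.60), Ccl5 passed without a filter (1.09), and the interaction of Ccl5 was at -0.073 with DESeq2. For shares in points, the graft change without proliferating cells was 3.38 for Ccl3, which passed, and 2.97 for Xcl1. The spleen change was -1.08 for Ccl4 and -8.22 for Ccl5 in CD8+Cd4- cells and -10.5 for Ccl5 without thinning, none of which passed, and 0.17 for Xcl1 without thinning and -0.50 at 500 UMIs. At Leiden resolution 1.5, monocyte and macrophage-like cells held 19.6% of Ccl3 and 22.6% of Ccl4 UMIs. The alternative without proliferating cells was chosen after seeing the data.

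With 1 library left out, graft over spleen for Ccl5 at 1 week ranged from 0.52 to 1.37, the spleen change of Ccl3 from -1.45 to -0.60, and the difference between tissues from 0.83 to 1.68 for Ccl3 (1.68 without library 3 of the spleen at 3 weeks) and from -0.31 to 0.17 for Xcl1. Rejecting against accepted graft ranged from -0.13 to 0.13 for Ccl3 and from -4.07 to -0.81 for Ccl5, rejecting graft over spleen from -1.31 to 1.95 for Ccl5, and the interaction from -1.23 to 2.16 for Ccl4 and from -2.22 to 1.04 for Ccl5. The number of genes called for rejecting graft over spleen was 1325, with 853 by DESeq2, 3912 in 1 fit over all groups, 594 without spleen library 1, and 815 without spleen library 3. For the interaction it was 187, with 438 by DESeq2, 1030 in 1 fit over all groups, 61 in CD8+Cd4- cells, and 56 to 377 with a library left out.

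Kidney and spleen libraries share tag numbers, and neither the labels nor the study's methods say that a number is the same mouse in both tissues. Same-numbered libraries deviated together unevenly (correlations of -0.07 to 0.50), so the number was not taken as a pairing. A replicate block, added after seeing the data, gave 4.21, 4.22, 0.78, and 4.05 for Ccl3, Ccl4, Ccl5, and Xcl1 at 1 week, and changed no call of a member at 1, 3, or 24 weeks.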
